A study of Penicillium oxalicum with 6 samples.

Results

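This account follows 62 genes of Penicillium oxalicum, out of 9822 listed in every library, whose transcripts were abundant in a POX_a00954 mutant and at least 10 times scarcer in the strain it was compared with. They were chosen from the measured levels: an average of 100 FPKM or more in the 3 mutant libraries, and less than 10% of that mean in each of the 3 comparison libraries. FPKM is the number of sequenced fragments per kilobase of transcript and per unit of mapped fragments of the library. In all, 96 genes passed both thresholds, of which 34 were left out by the rule. Of those, 26 lay in 5 stretches of neighbouring IDs, POX_a00740 to POX_a00770, POX_c04222 to POX_c04263, POX_c04500 to POX_c04530, POX_c04715 to POX_c04755 and POX_f08105 to POX_f08140. A further 8 were among the 15 outermost expressed IDs at a chromosome end.

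The mutant carries a mutation of POX_a00954. The series title names it with POX_c03583 as transcription factors linked to the making of enzymes that degrade raw starch. The comparison strain, PoxKu70, is given as wild type and is called the parent here. Its name refers to Ku70, a protein of DNA end joining whose loss is widely used in fungi to ease gene replacement. Spores came from plates kept for 4 days at 28 °C. Both strains were then grown for 24 h in glucose medium and moved for 24 h to medium whose sole carbon source was raw starch, before RNA was taken from the mycelium. The labels do not say which part of POX_a00954 was altered, how many transformants were used, or whether replicates are separate cultures. The p-values below therefore measure the spread between these libraries, which may be technical.

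As background, filamentous fungi that live on plant material adjust their secreted enzymes, sugar transporters and many metabolic genes to the carbon source, largely through transcription factors that bind the promoters of their targets. A factor can act as an activator, as a repressor, or on other regulators, and a gene that differs in a mutant need not be its direct target. Genes of one pathway, above all of secondary metabolism, often stand side by side in fungal genomes. The sources used here give no product, name or sequence for any of the 62 genes, so no role is assigned to any of them, and the mycelial label could not be checked against marker genes. Of the 62, all but POX_d05867 are in the RefSeq table of strain HP7-1, as protein-coding loci.

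POX_a00954 itself was lower in the mutant but present. Mutant replicates 1 to 3 had 283, 275 and 441 FPKM, and PoxKu70 replicates 1 to 3 had 716, 679 and 842 FPKM. The second factor of the title, POX_c03583, was at 104, 85.6 and 94.8 FPKM in the mutant and at 180, 155 and 224 FPKM in PoxKu70. For neither factor did the strains overlap, and the share of all genes without overlap was not counted. Both were called lower in limma at an adjusted p under 0.05. So were 30% of the 8448 tested genes, and 14.1% fell by at least 1 log2 unit. The log2 change of POX_a00954 was -1.19 with SE 0.20 and adjusted p = 0.0014, and that of POX_c03583 was -0.96 with SE 0.16 and adjusted p = 0.0014. No batch or date is given in the labels. The mutant libraries had FPKM sums 1.30 times those of the parent on average, a difference that bears on every level below.

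Most of the 62 genes were low in PoxKu70, but few were silent. The mean parent level was under 1 FPKM for 2 genes, from 1 to below 5 FPKM for 20, from 5 to below 10 FPKM for 14 and 10 FPKM or more for 26. Their median was 7.75 FPKM in PoxKu70 and 255 FPKM in the mutant. By rank among all genes, the median member moved from place 7051 in PoxKu70 to place 762 in the mutant. The working name of the group, genes strongly derepressed in the mutant, thus fits the low parent level of most members, but POX_a00166 already ranked 56th among the transcripts of PoxKu70. Levels show how much RNA was present and not whether a repressor was lost, so the genes are called strongly higher here.

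**Figure D1:**
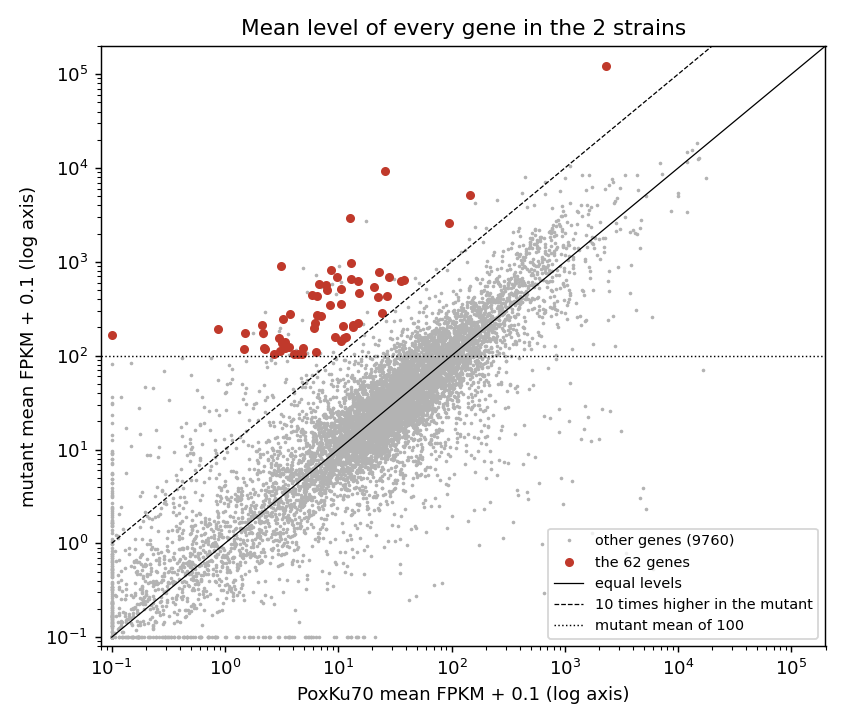
Mean FPKM + 0.1 of each gene in PoxKu70 (x axis) and in the mutant (y axis), both on log axes, with the 62 genes in red and the other 9760 in grey. The red points lie above the line of 100 FPKM in the mutant and above the dashed line of 10 times the parent level, where the grey points near them are mainly genes in the ID ranges left out.

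The mutant levels spanned a wide range. Means of 1000 FPKM or more were reached by 5 genes, means from 500 to below 1000 FPKM by 14, from 200 to below 500 FPKM by 19 and from 100 to below 200 FPKM by 24. Of the 61 genes with a parent level above 0, the ratio of mean FPKM, mutant over parent, was below 20 for 14, from 20 to below 50 for 24, from 50 to below 100 for 17 and at least 100 for 6. The median ratio was 38.2, while the median ratio of all genes averaging at least 1 FPKM was 0.99. All of these ratios come from the contrast that chose the genes and are given without a test. In the fit over all genes, 62 of the 62 were called higher by at least 1 log2 unit, where 15.5% of tested genes were, a count that the rule fixes.

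**Figure D2:**
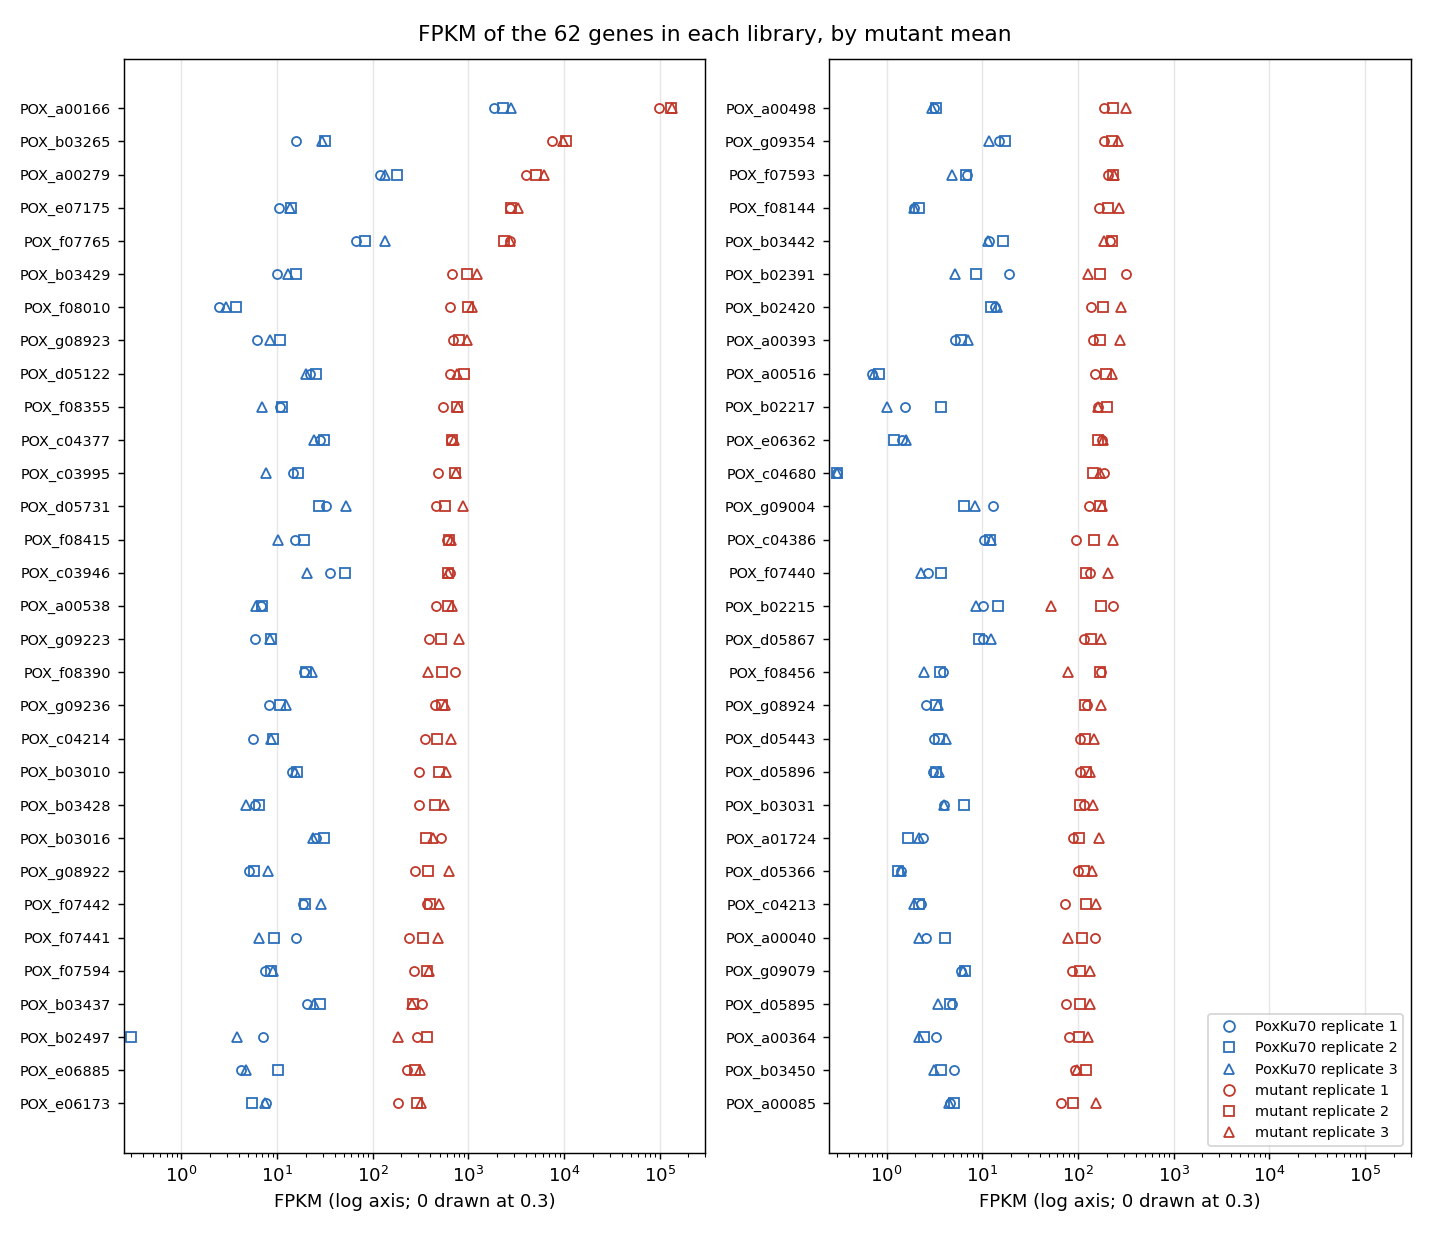
FPKM of the 62 genes in each of the 6 libraries on a log axis, ordered by mutant mean from top left to bottom right, with PoxKu70 in blue, the mutant in red and a symbol for each replicate. Values of 0 are drawn at 0.3. Symbols of the strains stay apart for every gene, as the rule largely fixes, and most narrowly for POX_b02215.

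A single gene carried most of the summed level of the 62 genes in the mutant. Mutant replicates 1 to 3 held POX_a00166 at 98623, 131135 and 135532 FPKM, against 1870, 2305 and 2766 FPKM in parent replicates 1 to 3. It was the most abundant transcript of the mutant and made up 75.8% of the summed mutant level of the 62 genes. The 62 genes together held 9.59%, 12.8% and 12.7% of the FPKM sum in mutant replicates 1 to 3, and 0.25%, 0.30% and 0.34% in parent replicates 1 to 3. Without POX_a00166, the other 61 held 2.41%, 2.97% and 3.09% in the mutant and 0.072%, 0.083% and 0.077% in PoxKu70. The rule asks for high mutant and low parent levels, so a larger share in the mutant is built in. In all, 1791 genes averaged at least 100 FPKM in the mutant.

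**Figure D3:**
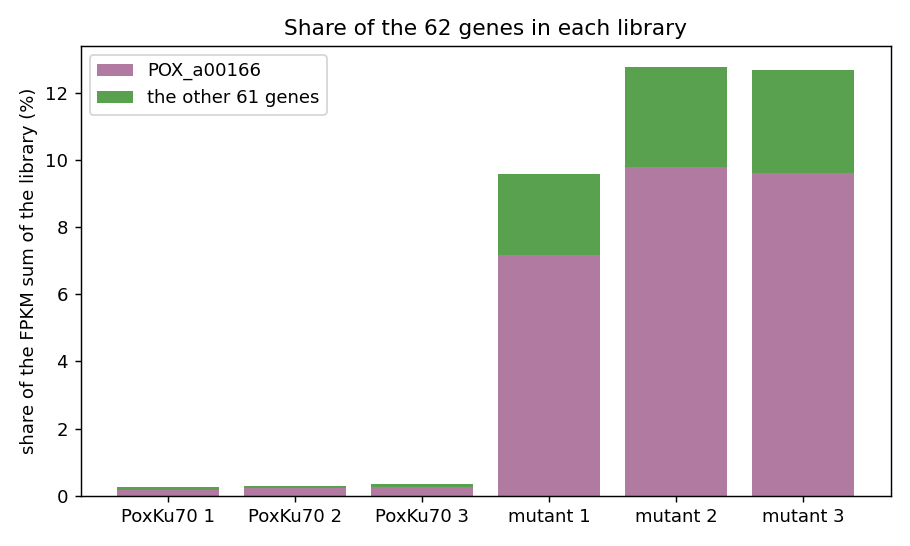
Share of the summed FPKM of each library (y axis, %) taken by POX_a00166 and by the other 61 genes, with a bar for each library. The bars of the mutant reach 9.59% to 12.8% and those of PoxKu70 stay at or below 0.34%.

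In summed level, the 62 genes held 3135 ± 492 FPKM in PoxKu70 and 160554 ± 25318 FPKM in the mutant (SD, n = 3 each). The difference, 157419 FPKM, had a size of 49.6% of the net difference in total FPKM between the strains, to which other genes both added and subtracted. The difference in POX_a00166 alone was 37.6% of that size. Why the FPKM sums differed was not tested.

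The next 4 genes by mutant level were also far above the parent, from unlike starting points. POX_b03265 had levels of 7526, 10463 and 9695 FPKM in mutant replicates 1 to 3 and of 15.7, 31.6 and 29.4 FPKM in PoxKu70. With a mean 361 times that of the parent, it had the largest ratio of the 61 genes and moved from rank 4688 to rank 10. POX_e07175, at 2703, 2821 and 3303 FPKM in the mutant and 10.4, 13.9 and 13.7 FPKM in PoxKu70, resembled it, with a ratio of 232. Mutant libraries agreed closely for POX_e07175, with a coefficient of variation (SD over mean) of 10.8%.

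POX_a00279 and POX_f07765 started higher. POX_a00279 was at 4004, 5051 and 6230 FPKM in the mutant against 120, 182 and 134 FPKM in PoxKu70, a ratio of 35.1. POX_f07765 was at 2742, 2376 and 2722 FPKM against 66.2, 82.6 and 133 FPKM, a ratio of 27.8. These 2 genes and POX_a00166 were the only members that averaged over 40 FPKM in PoxKu70. Across the 61 genes with a parent level above 0 and the gene at 0, parent and mutant means had a Spearman's rho of 0.67 across 62 genes. The rule requires a higher mutant level of a gene with a higher parent level, so this value is in part built in.

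The 14 genes between 500 and 1000 FPKM in the mutant came from parent means of 3.03 to 37.7 FPKM. POX_f08010 stood out among them by its starting point, at 2.50, 3.70 and 2.90 FPKM in PoxKu70 and 643, 998 and 1084 FPKM in the mutant, a ratio of 299. POX_b03429 reached 672, 969 and 1244 FPKM from 9.88, 15.8 and 13.0 FPKM. POX_g08923 reached 685, 802 and 975 FPKM from 6.24, 10.7 and 8.39 FPKM. In each of these 3 genes mutant replicate 1 was the lowest and replicate 3 the highest of the mutant libraries, an order taken up below.

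Several genes of this level were far more even across the mutant libraries. POX_c03946 was at 637, 614 and 609 FPKM, POX_c04377 at 662, 682 and 715 FPKM and POX_f08415 at 600, 633 and 659 FPKM. Their coefficients of variation were 2.39%, 3.92% and 4.75%, among the lowest of the group. In the parent the same genes were less even. POX_c03946 was there at 35.4, 51.6 and 20.5 FPKM, the least even of the 3.

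The remaining named genes between 500 and 1000 FPKM differed mainly in their ratio. POX_a00538 was at 458, 618 and 675 FPKM against 6.75, 6.94 and 6.09 FPKM, a ratio of 88.5. POX_d05731, at 461, 568 and 875 FPKM against 32.7, 27.7 and 52.9 FPKM, had a ratio of 16.8 and the highest parent level of these 14 genes. POX_d05122, POX_f08355 and POX_c03995 had mutant means of 777, 694 and 650 FPKM and ratios of 34.4, 71.9 and 50.3. Parent and mutant libraries stayed apart for all of them, which the rule largely fixes. The share of all genes whose strains stayed apart was not counted.

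Some genes of lower mutant level had equally large ratios because they were close to silent in PoxKu70. POX_c04680 was listed at 0 in all 3 parent libraries and at 186, 145 and 170 FPKM in the mutant, so no ratio is given. POX_a00516 was at 0.70, 0.84 and 0.74 FPKM in PoxKu70 and 149, 195 and 228 FPKM in the mutant, a ratio of 251. These 2 were the only members under 1 FPKM in every parent library. An exact 0 can also be a value that was not estimated. POX_b02497 was listed at 7.15, 0 and 3.83 FPKM in PoxKu70, the only other member with a 0 in any library, and at 291, 366 and 185 FPKM in the mutant.

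POX_e06362, POX_f08144, POX_d05366 and POX_b02217 also began near or below 4 FPKM. POX_e06362 was at 1.46, 1.19 and 1.58 FPKM in PoxKu70 and 179, 163 and 181 FPKM in the mutant, a ratio of 124 with closely agreeing libraries in both strains. POX_f08144 went from 1.94, 2.20 and 1.91 FPKM to 166, 205 and 267 FPKM, a ratio of 105. Ratios for POX_d05366 and POX_b02217 were 85.5 and 84.8. In PoxKu70 the coefficients of variation were 14.2% for POX_e06362, 7.91% for POX_f08144 and 4.65% for POX_d05366, but 67.3% for POX_b02217, whose ratio is the least certain of these.

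The thresholds cut through a continuous range. Nearest inside the limit of 100 FPKM were POX_a00085, POX_b03450 and POX_a00364, with mutant means of 103, 103 and 104 FPKM. Nearest outside it were POX_g08861, POX_h09793 and POX_d05797, at 93.9, 93.6 and 92.5 FPKM. For the limit of 10%, the highest parent library of POX_b03437, POX_b02215 and POX_b02391 stood at 9.94%, 9.55% and 9.17% of the mutant mean. Just outside, POX_c03497, POX_f08492 and POX_d06049 stood at 10.2%, 10.2% and 10.3%, the last of them with a mutant mean of 1768 FPKM. Membership near the limits is therefore a matter of small differences.

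The levels were also read in libraries that took no part in the thresholds. The outermost IDs left out were still set from all 6 libraries. Replicates may be technical, so the values that follow are a description and no independent support. One library of each strain was set aside, the thresholds were applied to the other 4 libraries, and the genes so chosen were read in the pair set aside. Over the 9 possible pairs, 60 to 70 genes were chosen. From 53 to 66 of them were at least 10 times higher in the mutant library set aside than in PoxKu70 library set aside, and their median ratio in that pair ran from 29.9 to 44.5. Both parts of the rule, that ratio and at least 100 FPKM in the mutant library, were met by 47 to 60 of them. The median ratio of all genes averaging at least 1 FPKM ran from 0.91 to 1.04 in the same pairs. How many of all genes were at least 10 times higher there was not counted. Only 1 gene was under 2 times higher in any pair, in that of mutant replicate 2 and parent replicate 1.

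The 62 genes had a wider spread between the mutant libraries, by the median, than other abundant transcripts. Their median coefficient of variation in the mutant was 21.3%, against 12.6% for the other 1729 genes with a mutant mean of at least 100 FPKM. The most variable was POX_b02215, with 235, 174 and 52.1 FPKM in the mutant and 10.2, 14.7 and 8.56 FPKM in PoxKu70, replicates 1 to 3. Its lowest mutant library was only 3.55 times its highest parent library, the narrowest gap of the group. For 8 members that gap was under 10 times, and for the others it was 10 times or more, with a median of 25.3 times over the 61 genes with a parent level above 0.

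The spread in the mutant had a direction shared by most members. Mutant replicate 1 was the lowest of the mutant libraries for 46 of the 62 genes (74.2%), and replicate 3 was the highest for 46 (74.2%). Among the other 1729 genes of at least 100 FPKM in the mutant, the shares were 27% and 44.1%. Both held at once for 42 of the 62 genes (67.7%) and for 23.7% of the others. The median ratio of replicate 3 to replicate 1 was 1.40 in the 62 genes and 0.98 in the others. The order of the 3 libraries has no meaning beyond naming them, and the pattern is a difference between the mutant libraries. Whether these came from separate cultures or transformants is not given.

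In the mutant's other genes higher by at least 1 log2 unit, a smaller rise than the rule asks, the shares were close to those of abundant genes in general. Among the 518 further genes of at least 100 FPKM in the mutant that limma called higher by at least 1 log2 unit (adjusted p under 0.05), replicate 1 was lowest for 30.1% and replicate 3 highest for 40.5%, and the median ratio of replicate 3 to replicate 1 was 0.95. Rescaling every library to the same FPKM sum (TPM) left replicate 1 lowest for 72.6% of the 62 genes and replicate 3 highest for 61.3%, against 29.6% and 38.5% of the other 1729. With median-ratio scaling the shares were 79% and 54.8%, against 39.3% and 33.8% of the others. The order was not particular to the 62 genes. Nearest outside the limits, POX_g08861, POX_h09793, POX_c03497 and POX_f08492 were also lowest in replicate 1 and highest in replicate 3. POX_d05797 was lowest in replicate 1 but highest in replicate 2, and POX_d06049 ran the other way, at 2213, 1878 and 1212 FPKM. A gene enters the group through its mutant mean, which a high library raises, and genes share libraries, so the shares are a description. POX_a00954 was also highest in mutant replicate 3, at 441 FPKM. The low-value steps put replicate 1 at the smallest depth of the mutant libraries. The part of either in this pattern was not tested.

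**Figure D4:**
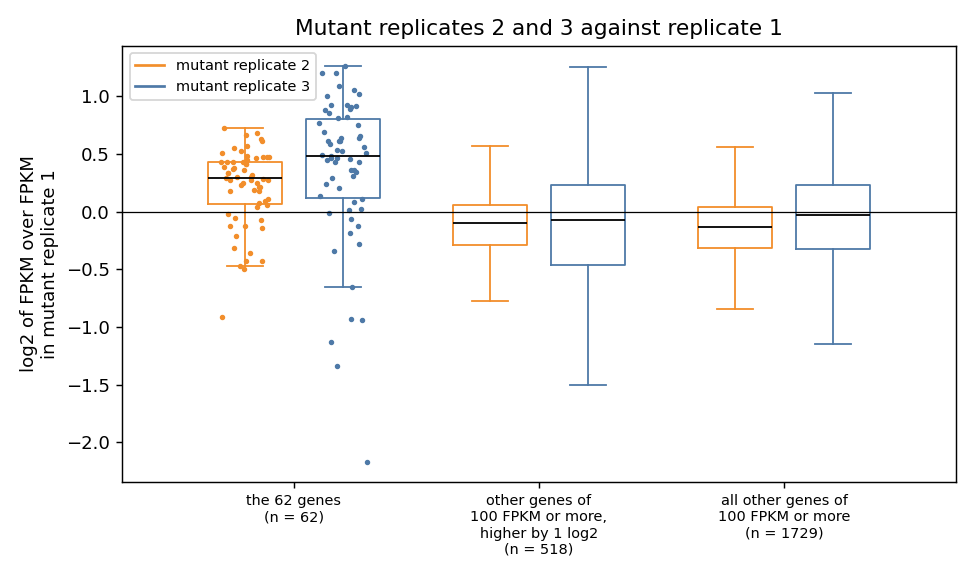
Log2 of the FPKM in mutant replicate 2 (orange) and replicate 3 (blue) over that in mutant replicate 1, for the 62 genes (points and boxes) and for other genes with a mutant mean of at least 100 FPKM (boxes, with outlying points not drawn). Boxes span the quartiles, with a line at the median and whiskers to the farthest values within 1.5 box lengths. The boxes of the 62 genes lie above 0 and those of the other genes lie across it.

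A minority went the other way. Mutant replicate 1 was the highest mutant library for 10 members. POX_b02391 had 319, 170 and 126 FPKM in the mutant libraries, and its parent libraries of the same numbers, at 18.8, 8.59 and 5.24 FPKM, followed the same order. POX_f08390, at 727, 526 and 379 FPKM in the mutant and 18.96, 19.9 and 23.2 FPKM in PoxKu70, had no such likeness between strains. Equal replicate numbers did not pair the libraries over all tested genes, so the likeness for POX_b02391 is no sign of pairing. At the other end, POX_a00085, POX_c04386 and POX_g08922 were the most variable of the genes highest in replicate 3. POX_g08922 was at 274, 381 and 630 FPKM in the mutant and 5.10, 5.80 and 8.13 FPKM in PoxKu70.

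The genes were spread over the chromosomes, except for VIII. Chromosome II held 14, VI held 12, I held 10, VII held 8, III and IV held 7 each and V held 4. Per 1000 tested genes outside the ranges left out, that is 13.1 on chromosome VI, 11.5 on VII and 10.5 on II. The values were 6.15 on I, 6.02 on IV and 4.06 on V. These counts are small, and differences between chromosomes were not tested. Chromosome VIII held none among 398 such genes, 67 of which reached 100 FPKM in the mutant. POX_h09793 of that chromosome missed the level limit narrowly, at 90.4, 94.4 and 95.9 FPKM in the mutant and 0.30, 0.46 and 0.18 FPKM in PoxKu70. Chromosome III had 7.5 per 1000, and 28 of its genes passed both thresholds before the blocks were left out.

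Of the 62 genes, 14 adjoined another member, in 4 pairs and 2 groups of 3. The largest ratio of sums was that of POX_g08922 to POX_g08924, at 17.9 ± 3.45 FPKM in PoxKu70 and 1387 ± 356 FPKM in the mutant (SD, n = 3 each), 77.6 times. POX_b03428 and POX_b03429 together went from 18.6 ± 3.33 to 1401 ± 411 FPKM (SD, n = 3 each), 75.3 times. In both groups the middle or second gene was the most abundant in the mutant. Mutant replicate 3 was the highest mutant library for all 14 of these genes, as it was for 74.2% of the 62.

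For POX_f07440, POX_f07441 and POX_f07442 the sums were 35.7 ± 2.90 FPKM in PoxKu70 and 929 ± 232 FPKM in the mutant (SD, n = 3 each), 26 times higher. POX_c04213 and POX_c04214 went from 9.94 ± 1.83 to 613 ± 200 FPKM, POX_f07593 and POX_f07594 from 14.5 ± 0.77 to 568 ± 81.2 FPKM, and POX_d05895 and POX_d05896 from 7.58 ± 0.49 to 226 ± 43.3 FPKM (SD, n = 3 each). The 6 groups lie on 5 chromosomes, with the other 48 members having no member directly beside them.

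Genes directly beside a member, which the rule did not choose, held a larger share of higher calls than tested genes at large. Of 107 such genes 97 were tested. In limma with an adjusted p of 0.05, 46 of the 97 (47.4%) were higher in the mutant, where 30.5% of all 8448 tested genes were. By at least 1 log2 unit, 38 (39.2%) were higher, where 15.5% of all were. Lower calls were fewer beside members, at 18 of 97 (18.6%) against 30% of all tested genes. Under TPM scaling, which moved the split over all genes from 2575 higher and 2532 lower to 1655 higher and 3911 lower, 40 of the 97 neighbours were called higher (41.2%, against 19.6% of all genes).

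Farther out, the shares of higher calls lay nearer those of all tested genes. Lower calls were still fewer at 2 IDs, at 22.2%, and were 27.9% to 28.9% at 3 to 5 IDs. Counting only falls of at least 1 log2 unit, the share was 6.67% at 2 IDs and 8.25% directly beside members, against 14.1% of all. At a distance of 2 IDs, 26 of 90 tested genes (28.9%) were called higher and 9 (10%) by at least 1 log2 unit. At 3 to 5 IDs the shares were 30.1% to 36.7% and 14% to 20%, and beyond 5 IDs they were 29.7% and 14.6%. The difference between distances was not tested, since neighbouring genes are not independent. Transcripts of adjoining genes can overlap or share reads, and no strand-keeping step is described, so reads of a member counted at its neighbour cannot be told apart from a change of the neighbour. The neighbours called higher had a median mutant level of 16.1% of that of the member beside them, with 17 of 46 under 10% and 6 above the member.

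**Figure D5:**
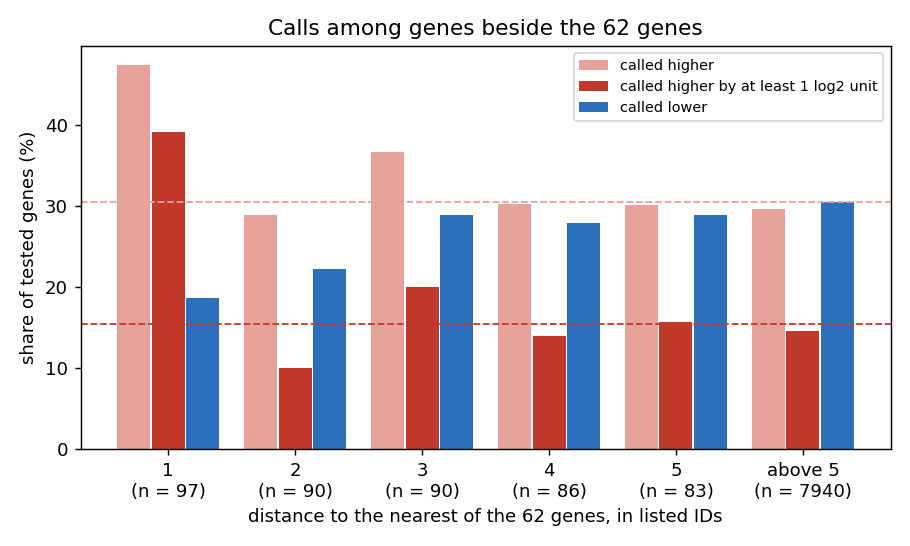
Share of tested genes (y axis, %) called higher, called higher by at least 1 log2 unit, and called lower in the mutant by limma at an adjusted p of 0.05, by distance to the nearest of the 62 genes in listed IDs (x axis). Dashed lines mark the shares of all tested genes called higher, 30.5%, and called higher by at least 1, 15.5%. The first group of bars is at 47.4%, 39.2% and 18.6%. Its bars of higher calls stand apart from the others, while lower calls are also fewer at a distance of 2, at 22.2%.

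Some neighbours differed by as much as members did. POX_f07443, beside POX_f07442, rose from 1.25, 0.67 and 0.87 FPKM in PoxKu70 to 46.4, 38.7 and 37.5 FPKM in the mutant (limma log2 change 4.44 with SE 0.18 and adjusted p = 6.092e-07). POX_b02421, beside POX_b02420, rose from 1.55, 1.40 and 1.33 FPKM to 105, 98.9 and 57.8 FPKM (limma log2 change 5.14 with SE 0.23 and adjusted p = 1.062e-06). Unlike its neighbour, which was highest in mutant replicate 3, it was lowest there.

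POX_e06172 and POX_d05894 rose as steeply, each beside a member. POX_e06172 went from 1.05, 1.05 and 0.92 FPKM to 32.6, 45.8 and 74.2 FPKM (limma log2 change 4.61 with SE 0.27 and adjusted p = 5.338e-06). POX_d05894 went from 1.34, 1.48 and 1.10 FPKM to 30.2, 38.0 and 82.0 FPKM (limma log2 change 4.34 with SE 0.33 and adjusted p = 2.073e-05). Both were highest in mutant replicate 3, as were the members beside them. Over all neighbours called higher, 25 of 46 (54.3%) had their highest mutant library in common with the member beside them. The same held for 15 of 33 (45.5%) tested neighbours that were not called and for 11 of 18 (61.1%) called lower.

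Other members stood beside genes that fell. POX_c04376, beside POX_c04377, dropped from 14.02, 11.7 and 16.4 FPKM in PoxKu70 to 1.83, 0.86 and 1.71 FPKM in the mutant (limma log2 change -2.62 with SE 0.23 and adjusted p = 3.943e-05). Both genes beside POX_d05443 fell, with limma log2 changes of -2.06 for POX_d05442 (SE 0.32, adjusted p = 8.12e-04) and -0.93 for POX_d05444 (SE 0.27, adjusted p = 0.018). The call of POX_d05444 was lost without mutant replicate 1, mutant replicate 2 or parent replicate 3, with log2 changes of -0.75, -0.81 and -0.78. POX_a00280, beside POX_a00279, showed that an abundant neighbour need not follow a member. It was at 1639, 1862 and 2254 FPKM in the mutant and 1562, 1389 and 1629 FPKM in PoxKu70 (limma log2 change 0.32 with SE 0.16 and adjusted p = 0.11).

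The genes beside the 2 most abundant members changed far less than those members. POX_a00167, beside POX_a00166, rose from 39.3, 30.1 and 40.01 FPKM to 137, 186 and 215 FPKM (limma log2 change 2.25 with SE 0.20 and adjusted p = 4.069e-05), while POX_a00165 on the other side was near 0, at 1.10, 0.26 and 0.63 FPKM in the mutant and 0.40, 0 and 0 FPKM in PoxKu70. Beside POX_b03265, POX_b03264 rose from a mean of 3.67 to 8.55 FPKM and POX_b03266 from 106 to 157 FPKM (limma, adjusted p = 0.0021 and 0.019). The call of POX_b03266 was lost without parent replicate 1 or 2, at log2 changes of 0.52 and 0.51, and under TPM scaling, at 0.17.

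Counting unbroken stretches of listed IDs called higher by at least 1 log2 unit, the 62 genes lay in 54 stretches. Of the members, 21 (33.9%) stood alone, whereas 61.1% of all 1200 genes so called outside the ranges left out stood alone. Stretches of 4 or more genes numbered 6 and held 13 members. The longest ran over 6 genes, POX_f07440 to POX_f07445, with sums of 79.8 ± 10.1 FPKM in PoxKu70 and 1152 ± 248 FPKM in the mutant (SD, n = 3 each). The next, over 5 genes from POX_d05893 to POX_d05897, had sums of 49.98 ± 10.4 and 374 ± 68.8 FPKM (SD, n = 3 each). The longest blocks of such genes were left out by the rule, so these stretches describe only what lies between them.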

How the data were processed

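Mycelium of 2 Penicillium oxalicum strains, 3 libraries each, was profiled by RNA sequencing. Per the labels' protocols, poly(A) RNA was enriched, random-primed and made into circularised libraries; no step that keeps the strand is described. The submitters' processing notes name bcl2fastq and HISAT2. No source used here names the counting tool or the genome build. The authors deposited FPKM per gene with 2 decimals, per the file headers. FPKM divides by the library's total, so an abundant transcript lowers the others.

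The files used here hold no counts, so no counting interval is given. Steps between low values put the other 5 libraries at 1.14 to 1.89 times the depth of mutant replicate 1. These estimates rest on few genes.

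The members and lists were chosen with earlier results of these data known. The genes described were chosen from the strain contrast itself, so no test between strains is offered as support for them, and the count of them called in the fit is fixed by the rule. Other genes were tested with limma 3.58.1 in R 4.3.3 on log2(FPKM + 1), two-sided, with an intensity trend. All 6 libraries entered the fit, with strain as the only term, over 8448 genes averaging at least 1 FPKM. Calls required an adjusted p under 0.05 (Benjamini-Hochberg over all tested genes), and a second count also a log2 change of at least 1. The script was tested on simulated data, where it recovered 59 of 100 planted changes of 1 log2 unit and 93 of 100 of 2 log2 units, with 5 false calls. A gene not called may therefore still differ. The simulation spared low genes, ignored the link of spread to level and held far fewer changes than were called here. Its rates need not hold for the real libraries. Fold changes on this scale understate those of low genes. The exact permutation test was not used, since it cannot reach the threshold with 3 against 3.

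IDs are POX locus tags, 9718 of them in the RefSeq table of assembly ASM172317v3, which was used only for names, chromosomes and neighbours. Named were the 15 genes with the highest mutant mean, the 10 largest ratios, the 5 highest in the parent, the 5 most variable, those at 0 in the parent, adjoining genes and those nearest each threshold. Neighbours and others named beyond these were chosen after their values were seen. Lists by product name, protein relatives and sequence features were planned but not analysed here, since the sources used here pair the IDs with neither products nor sequences. Alternatives were other thresholds, pseudocounts, filters and scalings, no trend, omitting each library and a replicate block. Values were processed with Python 3.11.15 and drawn with matplotlib 3.10.9.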

Additional observations from a re-analysis of the deposited data

How the results depend on the processing

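Omitting single libraries gave 59 to 68 genes, with 49 of the 62 chosen every time, and summed mutant levels of 152906 to 175666 FPKM. Without mutant replicate 3, 54 of the 62 were chosen. TPM scaling left 42 genes, all among the 62, with a summed level of 114175, and moved the median log2 change of all genes to -0.36. By construction, a mutant mean of at least 200 FPKM gave 38 genes, leaving no ID out gave 96 genes and 199286 FPKM, and a parent limit of 20% raised the sum to 185956 FPKM. Genes called higher numbered 1655 under TPM scaling and 2232 to 2554 under these omissions. Neighbours called higher numbered 42 to 50 there. POX_b02498, barely past the threshold, changed sign under TPM scaling (log2 change -0.049). Equal replicate numbers did not pair the libraries, with correlations of deviations of -0.06, -0.0029 and 0.15. A replicate block gave 2549 genes called higher and 46 neighbours. Depth limits the low values. The low-value steps, which rest on few genes, put the mutant libraries as the shallower. Mutant replicate 2 and parent replicate 3 lay close, at 1.41 and 1.48 times mutant replicate 1. Counts by product name and by protein relative were not run.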
